A study of Rattus norvegicus with 8 samples.

Results

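The 5 bladder urothelial carcinomas (UCs) BT1 to BT5 of rats given DMAV were divided into 2 sets, BT1, BT2 and BT3 (3 samples) and BT4 and BT5 (2 samples), out of the 8 samples of the series. The sets were chosen by sequencing coverage: calls were fewer on chromosome 5 (30 to 120 Mb) and chromosome 20 (0 to 24 Mb) in BT1 to BT3, and more numerous on chromosome 11 (60 to 70 Mb) in BT4 and BT5. The rule used no methylation level. All samples came from male rats of the F344/DuCrj strain. The rats were 10 weeks old at the start and received drinking water with 200 ppm of dimethylarsinic acid (DMAV, an organic metabolite of inorganic arsenic) or 0 ppm for 104 weeks, and the 3 controls from the latter group served as the baseline. Genomic DNA was cut with TaqaI and MspI and sequenced after bisulfite treatment (RRBS), which reads an unmethylated cytosine as T and a methylated one as C. The UCs were identified macroscopically, without histology, the methods do not state from how many rats they came, and the controls are described as bladder urothelium in the labels and as bladder tissue in its methods. Methylation calls hold no RNA, so the tissue labels were not checked against marker genes here.

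BT1 and BT2 may be 1 tumour, as may BT4 and BT5. BT1 and BT2 differed by over 20 points in 0.306% of 150064 windows of 200 bp with at least 50 calls in every sample, and BT4 and BT5 in 0.241%, whereas the 3 control rats differed from one another in 0.392% to 0.475%. The labels do not say whether any samples share an animal, so p-values measure only the spread between these samples, and the counts of windows called between the sets and of each kind of change over all windows, and the named windows, are also given with BT1 and BT2 summed and BT4 and BT5 summed (called merged pairs). The calls of each set against the controls and the counts within promoters were not recomputed that way. Nor were the genome-wide levels and the shares by CpG density, level and stretch. The merged second set is a single sample, which is assumed to vary like the others.

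Methylation of cytosines in CpG pairs is copied to daughter strands at cell division. In normal tissue most CpGs outside CpG islands are methylated, while islands at gene starts are mostly free of it. In many carcinomas, including those of the bladder, some island promoters gain methylation and CpG-poor DNA loses it, and the regions involved differ from tumour to tumour. Genes of the germ line and homeobox genes are well known among those whose promoters carry tissue-specific or tumour-specific methylation.

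The promoters that illustrate each kind of change are shown first, as RefSeq sequences of GRCr8 on the strand of the gene, from 250 bases before to 50 bases after the gene's start, with capitals for the CG pairs that had at least 3 reads in every sample. They were placed on the rn6 CpG positions of the files by their spacing of CG pairs, and were picked after their values were seen. Septin9 (a septin of the cytoskeleton, + strand) gained methylation in both sets, and Krt8 (the keratin 8 gene of simple epithelia and urothelium, - strand) lost it in both. Hoxd12 (a homeobox factor, + strand) was called as gained in BT1 to BT3, although BT3 itself lay only a little above the controls. Piwil1 (a protein of the germ line that binds small RNAs, - strand) had a window gained in BT1 to BT3 alone. A region that overlaps this Piwil1 window was gained in both sets. Necab2 (a neuronal calcium-binding protein, + strand) gained methylation in BT4 and BT5. Nobox (a homeobox factor of oocytes, - strand) had a window that was gained in BT1 to BT3 and lost in BT4 and BT5.
Septin9: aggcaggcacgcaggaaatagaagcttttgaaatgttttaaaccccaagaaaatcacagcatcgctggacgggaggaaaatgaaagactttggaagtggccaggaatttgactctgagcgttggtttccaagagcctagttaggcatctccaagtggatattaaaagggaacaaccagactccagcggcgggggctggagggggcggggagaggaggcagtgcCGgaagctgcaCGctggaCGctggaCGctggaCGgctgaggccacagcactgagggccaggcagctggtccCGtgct
Krt8: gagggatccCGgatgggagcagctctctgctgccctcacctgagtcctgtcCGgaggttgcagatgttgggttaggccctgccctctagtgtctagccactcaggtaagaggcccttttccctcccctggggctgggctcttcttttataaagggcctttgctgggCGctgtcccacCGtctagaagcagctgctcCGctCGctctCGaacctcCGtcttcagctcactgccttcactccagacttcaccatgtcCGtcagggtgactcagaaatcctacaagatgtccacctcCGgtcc
Hoxd12: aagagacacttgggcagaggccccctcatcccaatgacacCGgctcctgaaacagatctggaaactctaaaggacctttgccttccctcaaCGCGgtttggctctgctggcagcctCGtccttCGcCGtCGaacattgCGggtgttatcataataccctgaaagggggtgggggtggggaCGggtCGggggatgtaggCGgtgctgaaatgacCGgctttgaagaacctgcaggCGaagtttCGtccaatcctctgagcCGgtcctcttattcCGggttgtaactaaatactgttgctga
Piwil1: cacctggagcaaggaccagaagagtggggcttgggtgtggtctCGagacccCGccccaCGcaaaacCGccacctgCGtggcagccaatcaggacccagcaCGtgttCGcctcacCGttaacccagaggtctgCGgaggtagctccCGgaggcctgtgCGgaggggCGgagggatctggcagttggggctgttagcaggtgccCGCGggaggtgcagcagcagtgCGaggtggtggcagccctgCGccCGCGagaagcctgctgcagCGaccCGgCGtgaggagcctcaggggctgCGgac
Necab2: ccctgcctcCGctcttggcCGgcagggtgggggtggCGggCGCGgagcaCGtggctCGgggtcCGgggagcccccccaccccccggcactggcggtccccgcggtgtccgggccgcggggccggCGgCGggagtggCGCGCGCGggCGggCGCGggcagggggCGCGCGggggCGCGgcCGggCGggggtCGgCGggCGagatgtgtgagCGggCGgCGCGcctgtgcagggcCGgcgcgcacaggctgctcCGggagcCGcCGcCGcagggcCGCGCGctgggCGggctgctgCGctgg
Nobox: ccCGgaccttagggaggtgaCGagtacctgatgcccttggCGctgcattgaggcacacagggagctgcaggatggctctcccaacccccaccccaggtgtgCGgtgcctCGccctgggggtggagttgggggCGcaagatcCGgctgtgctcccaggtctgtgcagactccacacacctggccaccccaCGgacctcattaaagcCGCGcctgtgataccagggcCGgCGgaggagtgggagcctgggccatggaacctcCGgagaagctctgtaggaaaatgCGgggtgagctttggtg
These promoters hold 13, 10, 16, 22, 51 and 14 CG pairs in that order, of which 6, 10, 16, 22, 41 and 14 were measured in every sample. The median over all 33469 promoters of the table was 7.

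Each sample had 51434938 to 73836223 calls at 2526077 to 2821347 CpGs, with a median of 15 to 18 reads per CpG on chromosomes 1 to 20. Windows of 200 bp holding 3 or more CpGs, each read 3 times or more in all samples, numbered 253671, with a median of 92 to 128 calls per window and sample.

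Coverage set BT3 apart from BT1 and BT2 within the first set. On chromosome 5 from 30 to 120 Mb, the share of calls was 0.598 and 0.583 times the control mean in BT1 and BT2, 0.821 times in BT3, and 0.973 and 0.985 times in BT4 and BT5. On chromosome 20 from 0 to 24 Mb it was 0.576, 0.553 and 0.768 times in BT1, BT2 and BT3, against 0.974 and 0.965 times in BT4 and BT5. BT3 thus lay between BT1 and BT2 on one side and the controls (0.985 to 1.01 times) on the other in both stretches. On chromosome 11 from 60 to 70 Mb the share was 4.07 and 3.65 times the control mean in BT4 and BT5, and 1.04 to 1.09 times in BT1 to BT3. These values chose the sets and are given without a test.

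Outside the stretches that chose the sets, BT3 went with BT1 and BT2 in some places and departed from them in others. At 150 to 180 Mb of chromosome 5, calls were 0.662, 0.599 and 0.774 times the control mean in BT1, BT2 and BT3. They were 0.966 and 0.957 times in BT4 and BT5. Just beyond the first stretch, at 120 to 150 Mb of chromosome 5, calls were 1.20 and 1.16 times the control mean in BT1 and BT2 and 0.813 times in BT3. At the end of chromosome 1 (270 to 290 Mb) they were 1.30 and 1.35 times in BT1 and BT2 and close to the control mean in BT3. On chromosome 9, BT3 alone was lower at 70 to 120 Mb (0.741 times) and higher at 0 to 30 Mb (1.25 times), with BT1 and BT2 at most 1.04 times in both. Of 269 windows of 10 Mb, 33 in BT1, 31 in BT2 and 30 in BT3 lay over 0.25 from the control mean on the log2 scale, against 6 in each of BT4 and BT5 and 1 in each control. BT1 and BT2 shared 26 of these windows in the same direction, BT1 and BT3 shared 11, BT2 and BT3 shared 12, and BT4 and BT5 shared 6, while no window of BT1, BT2 or BT3 was shared with BT4 or BT5. Across the 269 windows, whose points share the control mean, Pearson's r was 0.934 between BT1 and BT2 and 0.989 between BT4 and BT5. It was 0.489 and 0.590 between BT3 and BT1 or BT2, and 0.200 and 0.230 between BT3 and BT4 or BT5. BT3 went the opposite way from BT1 in 2 windows and from BT2 in 1. The window at 10 to 20 Mb of chromosome 1, shared by BT4 and BT5, had -0.356 to 0.487 in the controls. The 269 windows include the stretches that chose the sets, so these counts and correlations are partly fixed by that choice. The windows that BT3 shared with BT1 all lay on chromosomes 5 and 20, mostly within those stretches, so that count is largely fixed.

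**Figure D1:**
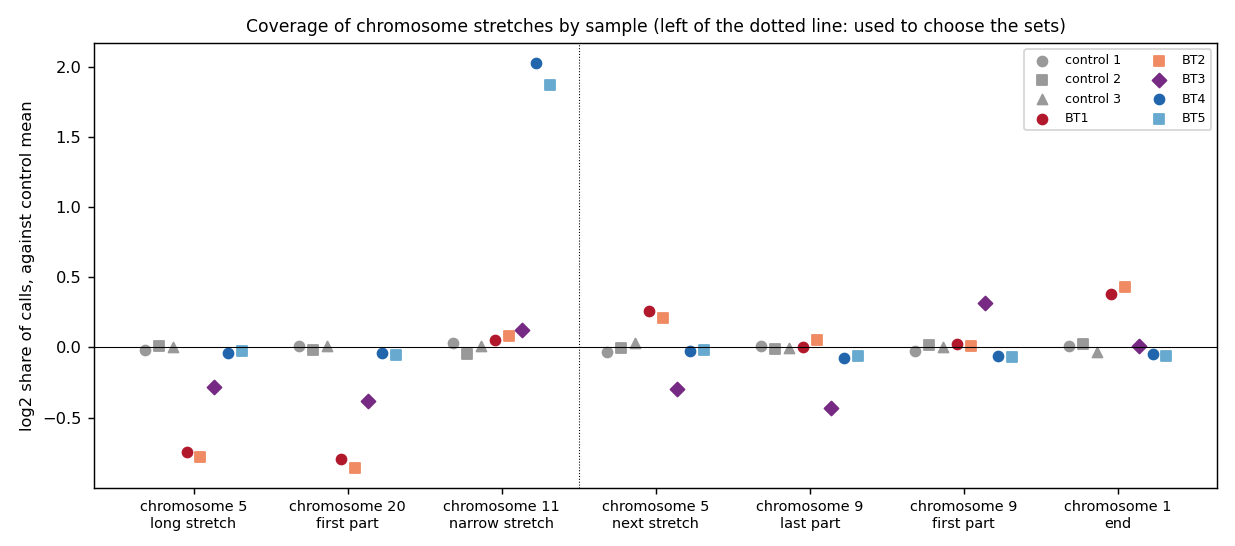
Log2 of the share of calls in 7 chromosome stretches relative to the mean of the 3 controls, 1 point per sample; grey points are the controls. BT1 and BT2 sit together in every stretch, as do BT4 and BT5, and BT3 sits apart from BT1 and BT2 most clearly on chromosomes 5, 9, 20 and 1.

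Base variants were read from the same files as a further measure of what the samples share. At a CpG, an A in place of G on the opposite strand marks a change of the DNA sequence. Of 1183586 CpGs with at least 10 such calls in every sample, 8 had at most 5% A in each control and at least 25% A in a UC. At chr6:25617052 the share of A was 35.7% in BT1 and 46.4% in BT2, and at chr6:109030350 it was 32.8% and 22.5%, with 0 A calls in the other 6 samples at both sites. At chr16:73648780 it was 39.1% in BT4 and 30% in BT5, and at chr20:12693417 it was 41.9% and 13.2%, again with 0 A calls in the others. BT3 alone had 34.8% at chr14:10978954. The other 3 sites each had A calls in BT2, BT3 and BT5, and 1 of them also in control 1. A looser threshold was chosen after seeing the data (at least 10% and 3 A calls in a UC, 0 A calls in each control). It gave 32 sites. Of these, 2 were seen in BT1 and BT2, 3 in BT4 and BT5, 2 in BT3 and BT5 and 1 in BT2 and BT4. Sites seen in 1 UC alone numbered 11 in BT3, 4 in BT1, 2 in BT2, 3 in BT4 and 3 in BT5. No site was shared by BT3 with BT1, and 1 was shared with BT2.

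The methylation levels, which the choice of sets did not use, placed BT3 no closer to BT1 and BT2 than to BT4 and BT5. BT3 differed by over 20 points from BT1 and from BT2 in 10.9% of the 150064 deep windows, from BT4 in 9.76% and from BT5 in 10.1%. BT1 and BT2 differed from BT4 and BT5 in 8.96% to 9.28%. Against the controls, BT1 and BT2 differed in 17% to 17.8%, BT4 and BT5 in 15.7% to 16.8%, and BT3 in 7.78% to 8.62%. BT3 therefore lay nearest to the controls of the 5 UCs. Where BT1 was compared with BT4, BT1 was the higher in 9598 and the lower in 3843 of the windows that differed. In bulk tissue, fewer tumour cells in a sample and a smaller change in each cell cannot be told apart.

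**Figure D2:**
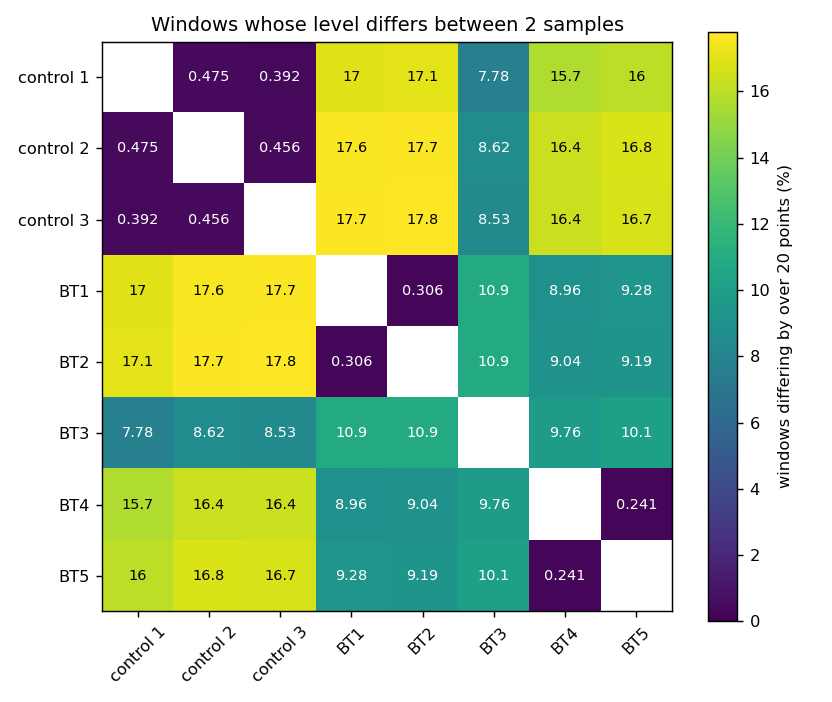
Percent of 150064 windows of 200 bp (at least 50 calls in every sample) whose methylation level differed by over 20 points between 2 samples; blank cells are a sample against itself. The pairs BT1 with BT2 and BT4 with BT5 are at 0.306% and 0.241%, no higher than the controls among themselves, and BT3 is at 9.76% to 10.9% against every other UC.

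Each set was compared with the controls by the quasi-binomial model on the calls, with a window called at an adjusted p under 0.05 and a difference of over 10 points. In BT1 to BT3, 26702 windows were called higher (10.5% of those tested) and 19192 lower (7.57%). In BT4 and BT5, 24235 were called higher (9.55%) and 28911 lower (11.4%). Losses thus outnumbered gains in BT4 and BT5, and gains outnumbered losses in the fit of BT1 to BT3. BT3 by itself went the other way from BT1 and BT2, with 10355 windows above and 13970 below the controls by over 20 points and outside their range, against 28132 and 20691 in BT1 and 27281 and 21739 in BT2. Both comparisons use the same 3 controls. In bulk tissue, a different mix of cell types in UCs and controls cannot be told apart from a change within cells. Gained and lost therefore describe levels of the whole sample.

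Between the sets, 12685 windows were called higher in BT1 to BT3 (5.0%) and 4777 lower (1.88%). With merged pairs the counts fell to 554 and 243. Leaving out 1 sample moved the total of 17462 by over 1.5 times in every case: it was 7377 without BT1, 8364 without BT2, 42945 without BT3, 3419 without BT4, 286 without BT5, and 11001, 10857 and 10954 without control 1, 2 or 3. The count rose without BT3 and fell without any other sample.

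Most windows that were called against the controls in both sets moved the same way. Windows higher in both sets numbered 15143, and windows lower in both numbered 14280, and with merged pairs these were 3634 and 4600. Windows called in opposite directions numbered 446, of which 333 were higher in BT1 to BT3 and lower in BT4 and BT5 and 113 the reverse (45 and 19 with merged pairs). A change in one set only required a call against the controls in that set, none in the other, and a call between the sets. BT1 to BT3 alone were higher in 2121 windows and lower in 1103 (40 and 28 with merged pairs). BT4 and BT5 alone were higher in 2224 windows and lower in 6692 (180 and 404 with merged pairs). Changes in BT4 and BT5 alone were therefore mostly losses, and changes in BT1 to BT3 alone were mostly gains in the separate fit. Leaving out 1 sample gave 7686 (without BT5) to 47019 (without BT3) windows that moved alike, 22 to 13897 in the first set alone, 189 to 12810 in the second alone and 87 to 2367 in opposite directions, the lowest without BT5 and the highest without BT3 in each.

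The median window gained in both sets had 47.9% in the controls, 87.9%, 87.9% and 71.6% in BT1, BT2 and BT3, and 86.6% and 87.2% in BT4 and BT5. The median window lost in both went from 68.5% in the controls to 15.4%, 13.1% and 34.5% in BT1, BT2 and BT3, and to 12.5% and 10.5% in BT4 and BT5. BT3 was thus the least changed UC in both kinds. Among windows higher in BT1 to BT3 alone, the medians were 82.9%, 83.6% and 74.1% in BT1, BT2 and BT3 against 51.4% and 48.9% in BT4 and BT5, and 54.7% in the controls. BT3 was over 20 points from the control mean in the direction of BT1 and BT2 in 28.3% of these windows and in 40.6% of those lower in BT1 to BT3 alone. Over all windows the share was 8.71%. The windows were called on a set that includes BT3, which favours windows where BT3 moved with BT1 and BT2.

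The position of BT3 was also read without a test, by noting for each window which UCs lay over 20 points from the control mean and outside the range of the controls. At least 1 UC did so in 76822 windows (30.3%). BT3 did so in 10355 windows upward and 13970 downward, whereas each of the other 4 UCs did so in 20978 to 28132 upward and 20691 to 26710 downward. Among 6985 windows gained in BT1 and BT2 and in neither BT4 nor BT5, BT3 had gained too in 14.5%. Among 2541 windows gained in BT4 and BT5 and in neither BT1 nor BT2, the share was 15.2%. For losses the shares were 19.3% of 3380 windows of BT1 and BT2 and 14.2% of 6517 windows of BT4 and BT5. For gains these shares were close, and for losses the share was higher for the windows of BT1 and BT2, without a test of the difference. Where both pairs had moved, BT3 had moved with them in 44.9% of 13381 gained windows and 62.8% of 12878 lost windows. A further 867 windows were gained and 1929 lost in BT3 alone.

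**Figure D3:**
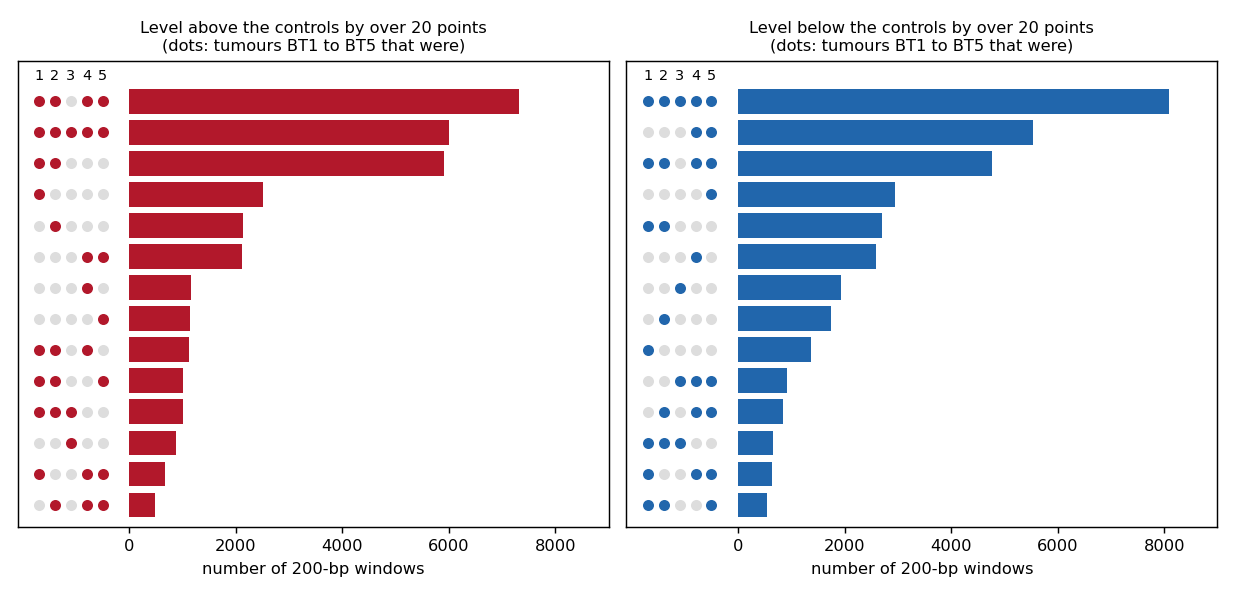
Number of 200-bp windows by which of the UCs BT1 to BT5 lay over 20 points above (left) or below (right) the control mean and outside the control range; coloured dots mark the UCs that did, and the 14 most frequent combinations are drawn. BT1 with BT2 alone accounts for 5908 gains and BT4 with BT5 alone for 5545 losses, while BT1, BT2 and BT3 without the others account for 1011 gains and 653 losses.

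The kinds of change differed in CpG density and starting level. Windows with at least 10 CpGs made up 13.0% of all windows, 7.77% of those gained in both sets and 1.80% of those lost in both. They made up 10.7% of the gains of BT4 and BT5 alone and 7.73% of those of BT1 to BT3 alone, against 1.40% and 1.45% of the losses. Windows over 80% methylated in the controls made up 57.1% of the losses of BT4 and BT5 alone and 52.5% of those of BT1 to BT3 alone, but 26% of the losses shared by both sets. Losses confined to one set by this rule thus came from more highly methylated windows (medians of 82.5% and 81.0% in the controls) than losses common to both (68.5%). Of 29898 windows with at least 10 CpGs and under 20% methylation in the controls, as in unmethylated CpG islands, 2.65% were gained in both sets, 0.692% in BT4 and BT5 alone and 0.355% in BT1 to BT3 alone.

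The stretches that chose the sets carried each of these kinds of change. Of 4717 windows on chromosome 5 from 30 to 120 Mb, 5% were gained and 4.41% lost in both sets, 0.530% were gained in BT1 to BT3 alone and 2.86% were lost in BT4 and BT5 alone. Of 5163 windows on chromosome 20 from 0 to 24 Mb, these shares were 4.42%, 6.33%, 0.465% and 3.41%. Over all windows they were 5.97%, 5.63%, 0.836% and 2.64%. Of 1084 windows on chromosome 11 from 60 to 70 Mb, 8.67% were gained in both, 1.57% were gained in BT4 and BT5 alone and 4.52% were lost there alone, against 5.97%, 0.877% and 2.64% of all windows. More calls in BT4 and BT5 there give more precision, and their part in these shares was not tested. Without chromosomes 5, 11 and 20, an alternative chosen after seeing the data, 15005 of 221209 windows were called between the sets.

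The largest changes were close to complete. The 2 windows with the largest gain in both sets were chr1:131463601-131463800 and chr2:185850801-185851000, which are not in a placed promoter. At the former, levels were 5.77%, 5.92% and 1.92% in the controls, 93.3%, 93.8% and 55.4% in BT1, BT2 and BT3, and 82.8% and 94.3% in BT4 and BT5. BT3 lay above the controls and below the other 4 UCs. At chr5:73157201-73157400, the window with the largest loss in both, levels were 81.7%, 94.7% and 87.3% in the controls, 0%, 1.75% and 0% in BT1, BT2 and BT3, and 0% and 0% in BT4 and BT5, and BT3 was at 0% there, as were BT1, BT4 and BT5. A loss of like size was found at chr18:64013401-64013600, where BT3 kept 21.2%.

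The rule for windows private to one set asks for a call between the sets, which fixes most of their separation. At chr16:4473601-4473800 levels were 9.61%, 12.3% and 7.02% in the controls, 93.5%, 94.2% and 47.1% in BT1, BT2 and BT3, and 9.52% and 0.397% in BT4 and BT5. The sets differed by 73.3 points (adjusted p = 0.0198), with BT3 between the controls and BT1 and BT2, and the call was lost with merged pairs. A loss was private to BT1 to BT3 at chr7:26964801-26965000, with 84.1%, 79.6% and 79.9% in the controls, 7.20%, 0% and 5.11% in BT1, BT2 and BT3, and 87.2% and 94.7% in BT4 and BT5 (adjusted p = 0.00197 between the sets), and BT3 was between BT1 and BT2 there. This call held with merged pairs.

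In BT4 and BT5 alone, chr3:112413201-112413400 had 14.3%, 0% and 10.9% in the controls, 9.88%, 13.1% and 4.84% in BT1, BT2 and BT3, and 91.8% and 92.8% in BT4 and BT5 (adjusted p = 0.00102 between the sets). The window chr11:86521401-86521600 holds at least 22 CpGs and 855 to 1924 calls per sample, and its levels were 10.3%, 8.10% and 8.52% in the controls, 3.75%, 3.57% and 4.33% in BT1, BT2 and BT3, and 87.3% and 83.5% in BT4 and BT5. BT1 to BT3 were below every control in that window while BT4 and BT5 were at over 80%, and the sets differed by -81.5 points (adjusted p = 2.45e-05). It lies at 70 to 100 Mb of chromosome 11, where the share of calls was 1.74 and 1.63 times the control mean in BT4 and BT5, as do the opposite window and the Tbx1 promoter described next, and the part of coverage in these results was not tested. A loss in BT4 and BT5 alone was found at chr12:30095201-30095400, with 90.2%, 94.1% and 91.7% in the controls, 94.7%, 94% and 91.8% in BT1, BT2 and BT3, and 11.9% and 8.11% in BT4 and BT5. These 3 calls held with merged pairs.

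Opposite changes were found close by. At chr11:86558401-86558600 levels were 65.7%, 47.9% and 59.4% in the controls, 81.7%, 85.5% and 80.2% in BT1, BT2 and BT3, and 4.79% and 5.07% in BT4 and BT5, so BT1 to BT3 lay above and BT4 and BT5 below every control, by 24.8 and -52.7 points from the control mean. This window is 4.8 kb from a window in the promoter of Tbx1 (a T-box factor of pharyngeal and heart development) that was gained in both sets, with 46.6%, 32.3% and 38.5% in the controls, 81.5%, 80.5% and 61.3% in BT1, BT2 and BT3, and 80.8% and 81.5% in BT4 and BT5. The window gained in BT4 and BT5 alone, described above, lies 32.2 kb from that promoter window. The calls at the opposite window and at the window of BT4 and BT5 held with merged pairs, and that of the Tbx1 promoter did not. At chr16:79797401-79797600 levels were 45.7%, 50.9% and 48.5% in the controls, 81.4%, 84.4% and 90% in BT1, BT2 and BT3, and 0% and 13.6% in BT4 and BT5, again with BT3 beside BT1 and BT2.

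Named genes came from the placed promoters: 8433 RefSeq promoters were placed, and 148 of the 150 placed genes that the study also lists lay within 5 kb of the listed region. They covered 9239 windows, of which 96.6% were under 20% methylated in the controls. In these, 40 windows were called higher in BT1 to BT3 than in BT4 and BT5 (0.433%, against 5.0% of all windows) and 61 lower (0.660%, against 1.88%). Gains common to both sets were found in 126 genes (1.44% of the promoter windows, against 5.97% of all windows) and losses in 32 (0.400% against 5.63%). Gains in BT1 to BT3 alone were found in 21 genes (0.216% against 0.836%) and in BT4 and BT5 alone in 45 genes (0.498% against 0.877%). Losses were found in 4 genes in BT1 to BT3 alone (0.0433% against 0.435%) and in 6 genes in BT4 and BT5 alone (0.0649% against 2.64%). The genes named below are the 8 with the largest changes of each kind, or as many as there were, among windows with at least 20 calls in every sample and a gene symbol that is not a LOC number.

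Promoters gained in both sets included genes of several roles. Septin9 (chr10:106192401-106192600) had 17.9%, 18.2% and 16.6% in the controls, 91.2%, 84.6% and 58% in BT1, BT2 and BT3, and 84.7% and 81.8% in BT4 and BT5. This promoter is 1 of the 2 placed over 5 kb from the region that the study lists for the gene (chr10:106240855-106240948), where levels were 0.187%, 0.465% and 0.735% in the controls, 85.2%, 85.1% and 48.6% in BT1, BT2 and BT3, and 66.6% and 60.9% in BT4 and BT5. It was called against the controls in BT1 to BT3 (adjusted p = 0.00357) and in BT4 and BT5 (adjusted p = 0.00307), but not between the sets (difference -5.27 points, adjusted p = 0.964). Mmp23, a matrix metalloproteinase, had 8.40%, 5.30% and 5.98% in the controls, 82.5%, 83.2% and 32.3% in BT1, BT2 and BT3, and 77.6% and 79.3% in BT4 and BT5. Slamf8, a surface receptor of immune cells, had 30.2%, 21.6% and 15.3% in the controls, 92.7%, 94.8% and 60% in BT1, BT2 and BT3, and 84.2% and 85% in BT4 and BT5. Aaas, a nuclear pore protein, had 9.54%, 8.10% and 6.57% in the controls, 77.5%, 82.8% and 34.4% in BT1, BT2 and BT3, and 61% and 62.4% in BT4 and BT5. BT3 was the lowest UC in each of these 4 promoters and above every control in each. Nradd, Trank1 and Ptprn2 (a receptor-type phosphatase of secretory granules) completed the named gains with Tbx1. The gains of Septin9, Nradd and Ptprn2 held with merged pairs, and those of Mmp23, Slamf8, Aaas, Trank1 and Tbx1 did not.

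The named promoters lost in both sets had middling levels in the controls and low levels in BT1, BT2, BT4 and BT5. The part of the mix of cell types in these levels was not tested. Krt8 (chr7:143603801-143604000) had 49.1%, 49.3% and 48.7% in the controls, 5.06%, 4.21% and 19.4% in BT1, BT2 and BT3, and 1.27% and 4.44% in BT4 and BT5, and BT3 lay between the controls and the other UCs. Dsc3, a desmosomal cadherin of the basal layers of stratified epithelia, had 36.4%, 35.2% and 39.9% in the controls, 3.46%, 2.46% and 26.3% in BT1, BT2 and BT3, and 3.61% and 1.89% in BT4 and BT5. Krtcap3, with at least 23 CpGs, had 34.4%, 38.3% and 25.7% in the controls, 3.25%, 1.62% and 9.26% in BT1, BT2 and BT3, and 3.82% and 1.06% in BT4 and BT5. Arhgef10l had 67.6%, 66.3% and 64.2% in the controls, 11.6%, 15.3% and 31.3% in BT1, BT2 and BT3, and 0% and 3.67% in BT4 and BT5, and was also called lower in BT4 and BT5 than in BT1 to BT3 (adjusted p = 0.0351). Its loss in both sets held with merged pairs, as did those of Prrc2b, Tm6sf2, C8h3orf62 and Krtcap3, whereas those of Krt8, Dsc3 and Fam110a did not.

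In BT1 to BT3 alone, the named gains included 2 genes of the Hoxd cluster and 2 of the germ line, besides a window of Nobox. Hoxd12 (chr3:61597201-61597400) had 36.5%, 35.1% and 41.4% in the controls, 89%, 84.8% and 48.5% in BT1, BT2 and BT3, and 31.8% and 27.8% in BT4 and BT5 (adjusted p = 0.0458 between the sets). Hoxd3, in the same homeobox cluster, had 10.5%, 12.2% and 8.21% in the controls, 51.5%, 44% and 15.9% in BT1, BT2 and BT3, and 1.06% and 10.2% in BT4 and BT5 (adjusted p = 0.0301). In both, BT3 was much nearer to the controls than to BT1 and BT2. Piwil1 (chr12:31629801-31630000) had 59.6%, 50.5% and 43.9% in the controls, 94.4%, 91.2% and 82.7% in BT1, BT2 and BT3, and 48.4% and 50.4% in BT4 and BT5 (adjusted p = 0.00832), and here BT3 sat with BT1 and BT2. The region of Piwil1 that the study lists (chr12:31629986-31630087), which overlaps this window and lies in the same printed promoter, was gained in both sets, with 66.4%, 63.6% and 60.8% in the controls, 84.7%, 80.3% and 85.1% in BT1, BT2 and BT3, and 77.7% and 77.9% in BT4 and BT5 (adjusted p = 0.195 between the sets). The gain private to BT1 to BT3 thus does not hold for the whole promoter. Adad1, an RNA-binding protein of male germ cells, had 61.9%, 61% and 63.5% in the controls, 93%, 93.8% and 74.5% in BT1, BT2 and BT3, and 46.5% and 45.4% in BT4 and BT5 (adjusted p = 0.0168). Eng (endoglin, a co-receptor of TGF-beta in endothelium) had 22.9%, 19.2% and 21.9% in the controls, 77.3%, 70.4% and 30.3% in BT1, BT2 and BT3, and 13% and 9.19% in BT4 and BT5, with BT4 and BT5 below every control but not called against them (adjusted p = 0.365). Tspan9, a tetraspanin, had 6.72%, 8.13% and 9% in the controls, 43.4%, 36.5% and 22.4% in BT1, BT2 and BT3, and 7.27% and 9.15% in BT4 and BT5, and its listed region within this window was not called between the sets (adjusted p = 0.0896). Lep, the gene of the hormone leptin, was the other named gain. As in Eng, BT4 and BT5 were below every control without a call in Hoxd12 (adjusted p = 0.576) and Adad1 (adjusted p = 0.151). The same was seen in Lep (adjusted p = 0.0639) and the Nobox window (adjusted p = 0.616). No call in BT4 and BT5 is thus not the same as no change. None of these calls held with merged pairs, where the differences between the sets were 38.4 points for Hoxd12, 26.2 for Hoxd3, 38.3 for Piwil1, 38.3 for Adad1 and 41.7 for Eng. The named losses were Usp19, a deubiquitinating enzyme, with 76.7%, 79.7% and 74.8% in the controls, 44.2%, 54.2% and 72.6% in BT1, BT2 and BT3, and 92.5% and 85.4% in BT4 and BT5, and Tex101, a glycoprotein of germ cells, with 85.7%, 86.3% and 85% in the controls, 66.8%, 65.7% and 70.5% in BT1, BT2 and BT3, and 79.2% and 83.8% in BT4 and BT5. For Usp19, BT3 was close to the controls, and BT4 and BT5 were above every control without a call (adjusted p = 0.186). Neither loss held with merged pairs.

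In BT4 and BT5 alone, the named gains were mostly at promoters with low levels in the other samples. Necab2 (chr19:52086201-52086400) had 3.23%, 4.69% and 4.25% in the controls, 2.29%, 2.63% and 3.21% in BT1, BT2 and BT3, and 47.2% and 43.4% in BT4 and BT5, from 746 to 1552 calls at a minimum of 34 CpGs. The sets differed by -42.6 points (adjusted p = 1.46e-04), and the call held in all 12 alternatives that kept the same windows, merged pairs included. Rab39a, a small GTPase of vesicle traffic, had 0%, 0.476% and 2.68% in the controls, 5.15%, 2.21% and 0% in BT1, BT2 and BT3, and 48.1% and 41.2% in BT4 and BT5. Htr3b, a subunit of the serotonin-gated channel, had 4.54%, 17.1% and 11.8% in the controls, 2.33%, 7.27% and 3.31% in BT1, BT2 and BT3, and 43.8% and 42% in BT4 and BT5. Tmprss12, a serine protease of male germ cells, started from a higher level and had 61.6%, 48.8% and 50.5% in the controls, 51.2%, 42.7% and 44.3% in BT1, BT2 and BT3, and 85.5% and 86.5% in BT4 and BT5. Pabpc4, a poly(A)-binding protein, had 11.5%, 10.1% and 15.5% in the controls, 3.91%, 5.12% and 8.11% in BT1, BT2 and BT3, and 49% and 27.8% in BT4 and BT5. BT3 sat with BT1 and BT2 in each of these 5 promoters, which were chosen by a call between the sets. Bak1 (a pro-apoptotic member of the BCL2 family, on chromosome 20 within the stretch of lower coverage in BT1 to BT3) had 23.5%, 20.8% and 18.4% in the controls, 0%, 3.23% and 27.6% in BT1, BT2 and BT3, and 53.1% and 61.9% in BT4 and BT5, from as few as 29 calls in a sample, with BT3 above BT1 and BT2. Elfn2 and Sntg2 were the other named gains. Necab2 and Pabpc4 held with merged pairs, and the others did not.

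The named losses in BT4 and BT5 alone were Ccdc185, Glul and Ptger4. The Ccdc185 window (chr13:101163401-101163600) had 77.3%, 73.8% and 72.1% in the controls, 69.7%, 77.3% and 77.2% in BT1, BT2 and BT3, and 41.9% and 45.3% in BT4 and BT5. The region of Ccdc185 that the study lists, just beside it (chr13:101163163-101163288), was not lost there, with 75.2%, 90.7% and 82.8% in the controls, 94.8%, 98.5% and 92.6% in BT1, BT2 and BT3, and 93% and 89.2% in BT4 and BT5. Glul, the gene of glutamine synthetase, had 49.7%, 54.2% and 50% in the controls, 47.6%, 53.2% and 53.6% in BT1, BT2 and BT3, and 29.2% and 26.8% in BT4 and BT5 (adjusted p = 0.00559 between the sets). Ptger4, a receptor of prostaglandin E2, had 11.6%, 18.9% and 14.6% in the controls, 9.91%, 13.8% and 18.4% in BT1, BT2 and BT3, and 2.33% and 1.37% in BT4 and BT5 (adjusted p = 0.0129). In Glul and Ptger4, BT1 to BT3 lay within a few points of the controls. None of the 3 calls held with merged pairs.

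Opposite changes in promoters were found in 2 windows, both in genes of the germ line. Nobox (chr4:72756801-72757000) had 42.5%, 36.4% and 37.6% in the controls, 61.6%, 57.4% and 49% in BT1, BT2 and BT3, and 24.9% and 27.7% in BT4 and BT5 (adjusted p = 0.00586 between the sets). Rec114, a factor of meiotic recombination, had 78.8%, 74.7% and 73.4% in the controls, 90%, 88.1% and 90.9% in BT1, BT2 and BT3, and 59.2% and 62.1% in BT4 and BT5 (adjusted p = 0.00395), with as few as 22 calls in a sample, and it held with merged pairs while Nobox did not.

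The single CpGs of the printed promoters showed where the sets parted. In Necab2, the means of BT1 with BT2 were below those of BT4 with BT5 at 40 of 41 CpGs, by over 20 points at 28, and the levels of BT4 ranged from 0% to 88.9% along the promoter. In Hoxd12, BT1 and BT2 were above BT4 and BT5 at 16 of 16 CpGs, by over 20 points at 13. In Piwil1 they were above at 16 and below at 5 of 22 CpGs, and in Nobox above at 13 of 14. In Krt8 the pairs differed by over 20 points at 0 of 10 CpGs. Neighbouring CpGs share reads and are not independent.

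**Figure D4:**
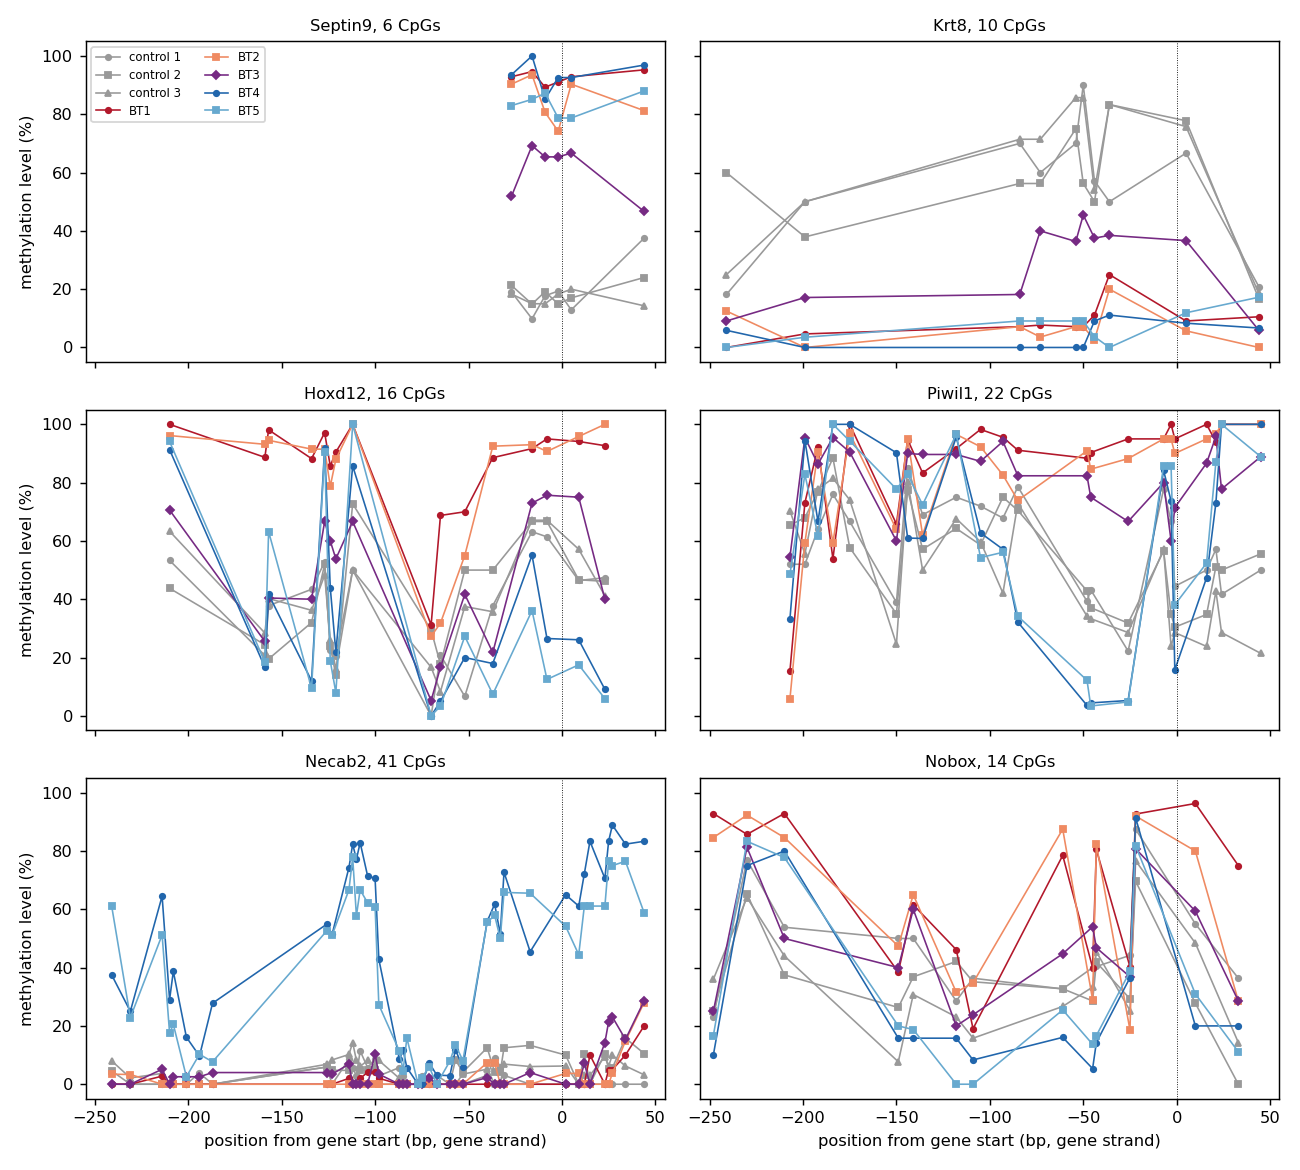
Methylation level of each CpG with at least 3 reads in every sample, by its position from the gene's start on the gene's strand, in the 6 promoters whose sequences are printed; 1 line per sample, controls in grey. In Necab2 the lines of BT4 and BT5 rise above the others on both sides of a run of CpGs where they stay low, and in Hoxd12 the means of BT1 and BT2 are above those of BT4 and BT5 at every CpG.

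The study lists 246 promoter regions as more methylated in every UC than in the controls, 240 of them on chromosomes 1 to 20. A gain in both sets is thus fixed by that choice and is not read as a result here, while the difference between the sets was no part of it. In all, 198 regions were covered well enough in all samples (3 or more CpGs, each read 3 times or more). Of these, 8 were called higher and 16 lower in BT1 to BT3 than in BT4 and BT5, beside 5.0% and 1.88% of all windows. No region was called with merged pairs or by limma on M values (62 had an unadjusted p under 0.05 in the quasi-binomial fit), and leaving out 1 sample gave 0 (without BT5) to 56 (without BT3). The difference was above 0 in 91 regions and below 0 in 107, with a median of -0.973 points, beside 0.224 points over all windows. All of BT1 to BT3 were above both BT4 and BT5 in 32 regions (16.2%, against 21.0% of all windows) and below both in 42 (21.2%, against 13.0%). The median level of the listed regions was 25.3%, 23.9% and 13.6% in BT1, BT2 and BT3, 22.5% and 23.2% in BT4 and BT5, and 2.57% for the control means. BT3 lay below the means of both pairs in 132 of the 198 regions, above both in 17 and between them in 49.

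The listed regions higher in BT1 to BT3 included a muscle kinase, a homeobox factor and receptors of peptide hormones. Speg (chr9:82571281-82571316), a kinase of striated muscle, had 18.4%, 10.7% and 7.96% in the controls, 73.7%, 83.3% and 35.3% in BT1, BT2 and BT3, and 37.1% and 32.3% in BT4 and BT5. The difference was 29.4 points (adjusted p = 0.0394), but BT3, with 17 calls, lay between BT4 and BT5. Nkx2-3 (chr1:263366687-263366852), a homeobox factor of gut and spleen development, had 4.29%, 2.05% and 6.82% in the controls, 50%, 40.5% and 41.7% in BT1, BT2 and BT3, and 20% and 15% in BT4 and BT5 (adjusted p = 0.0249). Bhlhe23, a basic helix-loop-helix factor of neurons, had 1.99%, 1.47% and 0.575% in the controls, 25.3%, 26.4% and 21.9% in BT1, BT2 and BT3, and 8.14% and 5.14% in BT4 and BT5 (adjusted p = 0.00566). In Nkx2-3 and Bhlhe23 the 3 UCs of the first set were above both of the second. Both regions were picked by a call between the sets. Such separation was found in 16.2% of the 198 listed regions and 21.0% of all windows. Gcgr (the glucagon receptor), Brinp2, Sstr4 (a somatostatin receptor) and Sarm1 (an NAD-cleaving enzyme of axon degeneration) were higher by 14.7, 14.2, 13.2 and 11.6 points.

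The listed regions lower in BT1 to BT3 were led by LOC102548847 and Clmp. Clmp (chr8:44846688-44846762), a cell adhesion molecule of tight junctions, had 2.78%, 2.97% and 0.850% in the controls, 14.1%, 14.2% and 21.4% in BT1, BT2 and BT3, and 37.6% and 31.9% in BT4 and BT5 (adjusted p = 0.0198). Gria2 (chr2:179704755-179704909), a subunit of the AMPA receptor, had 2.68%, 1.88% and 1.49% in the controls, 13%, 16.1% and 15.8% in BT1, BT2 and BT3, and 38.5% and 27.4% in BT4 and BT5 (adjusted p = 0.0216). Shisa7 had 7.18%, 11.9% and 6.88% in the controls, 39.4%, 41% and 49.7% in BT1, BT2 and BT3, and 63.3% and 59.1% in BT4 and BT5 (adjusted p = 0.0391). Dlgap2, a scaffold of the postsynaptic density, had 2.59%, 2.19% and 1.54% in the controls, 6.79%, 9.38% and 14.1% in BT1, BT2 and BT3, and 20.9% and 30.5% in BT4 and BT5 (adjusted p = 0.0262), and Dnm3, a dynamin, had 0%, 2.13% and 1.61% in the controls, 7.01%, 6.56% and 8.25% in BT1, BT2 and BT3, and 19.3% and 22.3% in BT4 and BT5 (adjusted p = 0.0175). Map10, a microtubule-associated protein with at least 15 CpGs, had 1.17%, 0.704% and 0.219% in the controls, 15.9%, 15.2% and 10.5% in BT1, BT2 and BT3, and 28.8% and 32.8% in BT4 and BT5 (adjusted p = 0.0128). BT1 to BT3 were below both BT4 and BT5 in each of these 6 regions, which were picked as large differences called between the sets. Such separation was found in 21.2% of the 198 listed regions and 13.0% of all windows. LOC102548847, Arhgef25, B3gat2 and C1ql2 differed by -19.0 to -16.1 points. The region of LOC102548847 overlaps the Ptprn2 promoter window, which was gained in both sets.

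**Figure D5:**
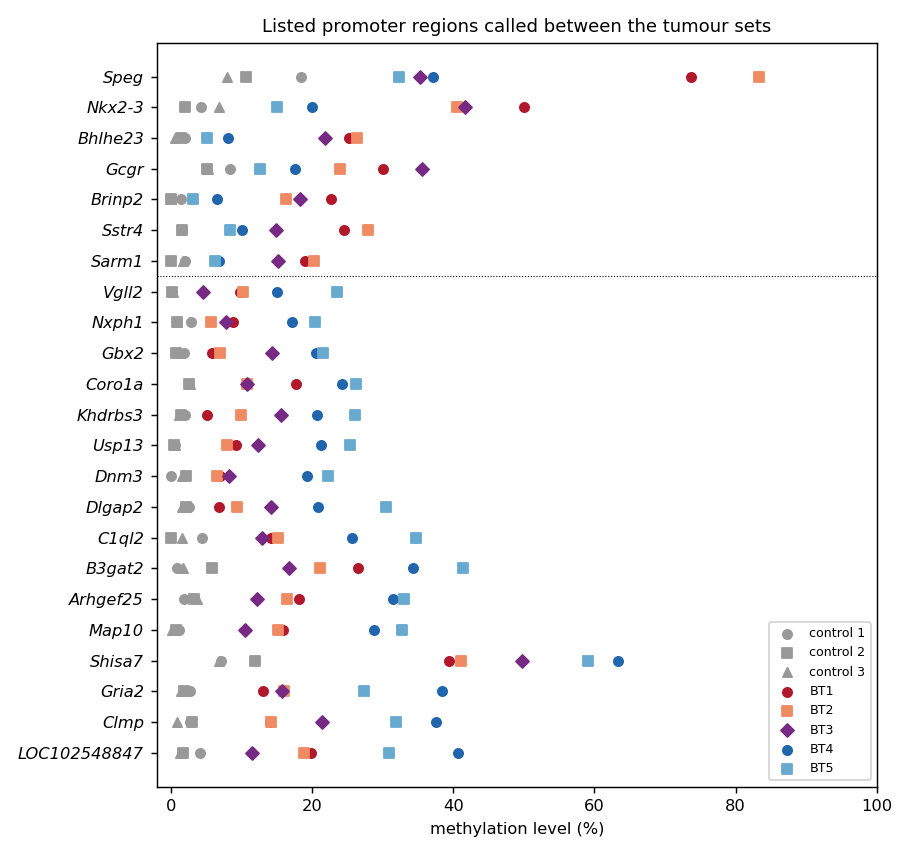
Methylation level of each sample in 23 listed promoter regions called between the sets, ordered by the difference between them; the dotted line parts the 7 regions higher in BT1 to BT3 from the 16 lower, and grey points are the controls. BT3 lies between BT4 and BT5 in Speg. Every UC lies above every control in all 23 regions, which follows from the study's choice of regions.

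By gene list, set out from the names of the listed genes with earlier results of these data known, 3 of 13 synapse and vesicle regions were called lower and 0 higher in BT1 to BT3, with a median difference of -5.44 points. The transmitter and peptide receptors had 2 of 15 called higher and 1 lower (median 3.11 points). The 14 covered homeobox factors had 1 higher (Nkx2-3) and 1 lower (Gbx2), with a median of -2.12 points, and the 14 other developmental transcription factors had 1 higher and 1 lower (median 1.13 points). Of 19 secreted and matrix proteins 1 was called higher and 2 lower, with a median of -0.0330 points. Adhesion and axon guidance had 1 of 16 called lower (median -0.846 points). Germ cell and cilia (11 regions) and metabolic enzymes and transporters (16 regions) had 0 called. Over all 198 listed regions, those in no list included, 8 were called higher and 16 lower, beside 5.0% and 1.88% of all windows. Of the same 198 regions, 62 had an unadjusted p under 0.05 in the quasi-binomial fit, beside 23.5% of all windows. No list was tested against the others.

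Several of the largest differences in a list were not called. Amdhd1, an enzyme of histidine breakdown, had 0%, 5.56% and 3.33% in the controls, 19.1%, 29.4% and 6.67% in BT1, BT2 and BT3, and 66.7% and 48.6% in BT4 and BT5, a difference of -39.2 points (adjusted p = 0.0769), from 9 to 35 calls per sample. Spata32, a gene of the testis, had 11.8%, 12.8% and 10.6% in the controls, 62.5%, 65.7% and 30.3% in BT1, BT2 and BT3, and 26.4% and 24.1% in BT4 and BT5 (adjusted p = 0.102). Mfap2, a protein of microfibrils, had 13%, 16% and 11.2% in the controls, 75.7%, 79.1% and 33.6% in BT1, BT2 and BT3, and 42.3% and 43.7% in BT4 and BT5 (adjusted p = 0.479). In Spata32 and Mfap2, BT3 was near BT4 and BT5 and far below BT1 and BT2. Gjd2, a gap junction protein of neurons, had 1.72%, 2.82% and 0% in the controls, 9.59%, 21.8% and 6.67% in BT1, BT2 and BT3, and 29.4% and 40% in BT4 and BT5.

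The 4 genes that the study follows were not called between the sets. Cpxm1, a carboxypeptidase-like protein, had 5%, 2.74% and 2.30% in the controls, 22.6%, 55.6% and 32.5% in BT1, BT2 and BT3, and 43.9% and 36.9% in BT4 and BT5 (adjusted p = 0.998), with BT1 the lowest and BT2 the highest UC. Opcml, a cell adhesion molecule, had 4.42%, 0.667% and 0.856% in the controls, 14.5%, 15.6% and 15.4% in BT1, BT2 and BT3, and 8.44% and 8.08% in BT4 and BT5 (adjusted p = 0.254), and BT1 to BT3 were above both BT4 and BT5. Kcnd3, a potassium channel, had 0.737%, 2.16% and 2.33% in the controls, 25%, 16.2% and 6.14% in BT1, BT2 and BT3, and 19.5% and 13.7% in BT4 and BT5 (adjusted p = 0.86). Tbx20, a T-box factor of the heart, had 4%, 1.99% and 2.40% in the controls, 19.2%, 19.5% and 4.49% in BT1, BT2 and BT3, and 15.5% and 11.6% in BT4 and BT5 (adjusted p = 0.824). BT3 was the lowest UC for Kcnd3 and Tbx20 but not for Cpxm1 or Opcml. Cpxm1 had few calls, with 31, 54 and 40 in BT1, BT2 and BT3 and 41 and 65 in BT4 and BT5. The order of the UCs at Cpxm1 is thus uncertain. Among the smallest differences of the lists were those of Mdk, Cldn1, Bhmt2, Gad2, Npbwr1, Kcnk9, Tbxt and Nkapl, between -1.33 and 0.733 points.

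Genome-wide levels over summed calls were 37.3% ± 1.39 (SD, n = 3) in BT1 to BT3, 35.6% ± 0.511 (SD, n = 2) in BT4 and BT5 and 34.0% ± 1.64 (SD, n = 3) in the controls. These SDs and n count samples. If BT1 and BT2, or BT4 and BT5, are 1 tumour, they include spread within a tumour. An exact two-sided permutation test over the 10 divisions of the 5 UCs cannot go below p = 0.1, and 13 levels were compared in this family. The test treats the 5 UCs as independent, which may not hold, and the levels were not recomputed with merged pairs. The sets differed by 1.65 points (exact permutation p = 0.2, adjusted p = 0.371). Windows of 3 to 5 CpGs that were over 80% methylated in the controls had 89.0%, 88.4% and 87.8% in BT1, BT2 and BT3 against 86.5% and 86.4% in BT4 and BT5, so the sets did not overlap (exact permutation p = 0.1, adjusted p = 0.371). Windows of at least 10 CpGs that were under 20% methylated in the controls had 2.89%, 2.80% and 1.99% in BT1, BT2 and BT3, 2.47% and 2.35% in BT4 and BT5, and 0.918% to 1.18% in the controls (exact permutation p = 0.8 between the sets, adjusted p = 0.8). Each UC was above each control in these windows, and BT3 was the lowest UC.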

How the data were processed

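DNA methylation was measured by RRBS in 5 UCs and 3 control bladders. The authors removed adapters and mapped the reads with RRBSMAP (rn6), discarding fragments with several locations and all but 1 of those alike in barcode and position. The deposited files give raw counts per CpG with both strands combined: C calls, C and T calls, and the G and A calls of the other strand. Per the labels, HOMER was also used.

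C calls and all calls on chromosomes 1 to 20 were summed over 200-bp windows and over the regions listed by the study, and the level is their quotient. Levels were fitted by a quasi-binomial model with 3 groups (Python 3.11.15, numpy 2.4.6, pandas 2.3.3). The dispersion per window was squeezed by limma 3.58.1 (R 4.3.3, with 5 residual and 2.49 prior degrees of freedom, median dispersion 1.40), and F-test p-values received the Benjamini-Hochberg adjustment across windows and regions together. The fit was tested on simulated data with known changes, in which all samples were independent with the same spread. That test therefore does not cover pairs of samples that may be 1 tumour. Windows with more calls carry less counting error.

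Promoters were placed where the CG spacing of a RefSeq sequence matched at least 8 CpGs of the files at 1 position on the same chromosome, with no CpG of the files out of place, and a window was assigned to a promoter where at least 0.5 of its bases lay in it. Other windows carry no gene name, as no rn6 gene models were used here. The members and lists were chosen with earlier results of these data known. Windows named are the 2 with the largest change of each kind, at least 1 Mb apart and with at least 20 calls in every sample. Listed regions named are the 10 most higher and the 10 most lower among those called, the 4 genes the study follows, and the largest and smallest difference in each list, and a few of these are not reported here. Named promoters were chosen after their values were seen. Alternatives were at least 10 reads per CpG, CpGs in all 8 files, 1-kb windows, over 20 points, limma on M values (pseudocount 0.5), merged pairs, ranges in place of a test, a replicate block and each sample left out. Added after seeing the data were a dispersion of at least 1, the removal of chromosomes 5, 11 and 20, and a looser threshold for variants. Figures were drawn with matplotlib 3.10.9.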

Additional observations from a re-analysis of the deposited data

Results flagged for a closer look

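Among 61 measures of the 5 UCs (coverage of 12 chromosome stretches, 13 genome-wide levels and 36 named regions), 2 had a single sample far from the others, where chance flags about 1 in 20. Both were coverage on chromosome 9 in BT3. The bounds of these 2 stretches follow the shifts in the coverage of BT3, so that rate does not apply to them. Nor need it hold for the other measures, as it assumes 5 independent samples. BT1 with BT2 and BT4 with BT5 may each be 1 tumour, and a sample with a close partner is seldom flagged. The log2 share of calls at 70 to 120 Mb was -0.43 in BT3, against -0.07 to 0.05 in the other UCs. At 0 to 30 Mb it was 0.32 in BT3, against -0.07 to 0.03. Their part in the methylation levels was not tested.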

How the results depend on the processing

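In the order windows called between the sets, changed alike, in the first set only, in the second set only, in opposite directions, and listed regions called, the counts of 17462, 29423, 3224, 8916, 446 and 24 became 797, 8234, 68, 584, 64 and 0 with merged pairs. Differences of over 20 points left 10805, 20641, 1617, 5763, 80 and 3. At least 10 reads per CpG gave 11359, 18340, 2352, 5399, 298 and 19. With limma on M values the counts were 4302, 20000, 699, 2587, 70 and 0. Ranges in place of a test gave 45230, 30624, 4803, 20200 and 540 windows. Leaving out 1 sample gave 286 to 42945, 7686 to 47019, 22 to 13897, 189 to 12810, 87 to 2367 and 0 to 56, the lowest without BT5 and the highest without BT3. Fewer samples or windows enter some of these fits, and the cause of the other changes was not tested. Common CpGs, 1-kb windows, a dispersion of at least 1 and the removal of chromosomes 5, 11 and 20 moved no count by over 1.5 times. Of 55 named windows, 20 kept their kind of change with merged pairs, 39 with limma on M values and 20 to 48 when a sample was left out, and no named difference changed sign past a call.

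The replicate numbers 1 to 3 of controls and UCs do not pair the samples (correlations of deviations from -0.0639 to 0.0622). BT1 to BT3 against the controls gave 32877 windows with the replicate block and 33687 in the same 6 samples with no block. Each comparison has 3, 3 and 2 samples, which may be fewer independent tumours. Depth limits windows with few calls, as at Rec114 and Speg, where 22 and 17 calls stood in a sample.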
